A study of Mus musculus with 2 samples.

Results

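The 10 genes described here, Dlk1, Grb10, Cdkn1c, Mest, Ndn, Plagl1, Peg3, Zim1, H19 and Meg3, are imprinted growth genes, taken from the 32285 genes of the matrix by their symbols. They were chosen by their measured levels in these cells, in that Zim1 and Ndn were leading genes of a group of fibroblasts, and by their known imprinting. Each symbol matched 1 row of the matrix. The study examined single cells of knee joints of the hindlimb from mice at postnatal day 7, of both sexes, after removal of skin and paws and digestion in 4 mg/mL collagenase II for 6 h. The groups were Col12a1 KO joints, which lack a functional gene for collagen XII, and Col12a1 wt joints, named WT in the sample titles. According to the labels, 2 experiments were merged, the earlier with 1 KO and 1 WT sample and the later with 2 of each. How the KO allele was made and in which cells it acts are not stated by the labels.

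The cells of both genotypes are merged in a single matrix. Its barcodes form 2 sets by their last digit, and the labels do not say which mice or which experiment gave either set. It was handled as 1 sample, no KO and WT values could be compared, and no p-value is given. Values of the barcode sets stand side by side only to show how far they differ. Col12a1 itself had 52.2 CPM in set 1 and 257 CPM in set 2 over all cells used (CPM: unique molecular identifiers, UMIs, of a gene per 1000000 UMIs of the same cells), and no genotype was read from this. Of 24203 barcodes, 15170 cells were used, each with 500 genes or more, 1000 UMIs or more and a mitochondrial share of UMIs up to 10%. They were 7157 in set 1 and 8013 in set 2 with a median of 10959 and 9623 UMIs. Of these, 14 barcode sequences occurred in both sets. Clustering without the listed imprinted genes gave 33 clusters, of which 29 were named from marker genes as 17 cell classes, 10 outside the blood lineages and 7 within them.

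Imprinted genes are read mainly from the allele inherited from 1 parent. Several members of this group raise or restrain fetal and neonatal growth, and many are known to be shut down together in mouse organs as growth slows after birth. H19, Zim1, Cdkn1c, Grb10 and Meg3 are known in mouse as genes read mainly from the maternal allele, and Dlk1, Ndn, Peg3, Mest and Plagl1 as genes read mainly from the paternal allele. Peg3 and Zim1 lie next to each other on chromosome 7 with 7441 bases between them, and Dlk1 and Meg3 on chromosome 12 with 77664 bases between them. In mm10 the other genes of chromosome 7 are Ndn, at chr7:62346569-62350262 on the plus strand, H19, at chr7:142575529-142578143 on the minus strand, and Cdkn1c, at chr7:143458339-143461050 on the minus strand. Peg3 spans chr7:6703892-6730431 and Zim1 chr7:6671269-6696450, both on the minus strand. Dlk1 spans chr12:109452823-109463336 and Meg3 chr12:109541001-109571726, both on the plus strand. The remaining 3 genes are Mest, at chr6:30723547-30748465 on the plus strand, Plagl1, at chr10:13060504-13131694 on the plus strand, and Grb10, at chr11:11930508-12038683 on the minus strand. UMI counts do not tell the alleles apart, so all values are sums over both.

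The promoters of Zim1, Ndn and Peg3 are shown because these genes had the highest ratios of the Abca8a fibroblast cluster described below to the other fibroblast-like clusters pooled. Each is the 250 bases before the RefSeq transcript start in GRCm38.p6, the first listed where RefSeq gives several, read 5′ to 3′ on the gene's strand, with CpG dinucleotides, the sites of imprint methylation, in capitals. Zim1 (chr7:6696433-6696682, minus strand) had 14 CpG, Ndn (chr7:62348027-62348276, plus strand) had 5 and Peg3 (chr7:6730420-6730669, minus strand) had 8.
Zim1: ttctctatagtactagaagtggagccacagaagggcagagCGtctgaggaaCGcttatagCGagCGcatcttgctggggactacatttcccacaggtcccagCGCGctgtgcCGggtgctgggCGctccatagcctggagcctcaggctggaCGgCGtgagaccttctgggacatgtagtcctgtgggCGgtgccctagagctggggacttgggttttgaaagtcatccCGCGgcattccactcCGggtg
Ndn: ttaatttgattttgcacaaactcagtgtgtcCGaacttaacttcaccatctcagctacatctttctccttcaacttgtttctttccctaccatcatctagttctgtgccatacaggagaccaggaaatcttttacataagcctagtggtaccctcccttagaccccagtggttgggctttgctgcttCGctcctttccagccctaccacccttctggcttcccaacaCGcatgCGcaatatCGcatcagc
Peg3: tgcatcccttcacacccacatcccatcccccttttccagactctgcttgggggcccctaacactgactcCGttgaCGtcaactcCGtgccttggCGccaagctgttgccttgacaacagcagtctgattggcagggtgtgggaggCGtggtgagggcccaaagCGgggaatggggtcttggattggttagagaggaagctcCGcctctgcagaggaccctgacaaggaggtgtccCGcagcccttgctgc
CpG was searched on the strand shown, where it reads the same on both strands. Of 27025 promoters of the same length, 29.6% held at least 14 CpG, 43.4% at least 8 and 55.5% at least 5. Of the 10 genes 8 had a promoter entry, H19 and Cdkn1c not being among them, and the 8 held a median of 9 CpG against 6 over all promoters. Grb10, at chr11:12037421-12037670, held the most of the 8, with 40 CpG, a count reached by 1.30% of promoters. The Ndn start used by RefSeq lies inside the GENCODE M21 gene, which spans chr7:62346569-62350262, so the window may differ from the promoter used in these cells.

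All 10 genes were higher outside the blood lineages than in them. A gene was called higher or lower between 2 groups of cells where the ratio of CPM was at least 2 in that direction, at least 100 UMIs were counted, the exact 95% interval of the ratio (counting error only) held no 1, and both barcode sets went the same way. Pooled over the 10 non-blood classes against the 7 blood classes, the ratios were between 12.1 for Zim1 and 23.8 for Cdkn1c, with a median of 14.1, and 10 of 10 genes were called higher. In this comparison 34.3% of the 16427 genes tested were called higher. The non-blood classes include the fibroblast-like cells, and the choice of the genes used the levels of Zim1 and Ndn in fibroblasts. Nothing is therefore read from this count. Zim1 had 6.56 CPM over the blood classes, Ndn 8.52 CPM, Cdkn1c 52.7 CPM and H19 151 CPM. Free RNA in the droplets gives UMIs in cells that do not use a gene, and blood cells served as the measure of that level. Against it, H19 in synovial lining-like cells, at 97.3 CPM, and in pericyte-like cells, at 121 CPM, was not above the blood level. The same held for Dlk1 and Mest in synovial lining-like cells, at 48.9 and 10.4 CPM, and for Zim1 in pericyte-like cells, at 0.788 CPM. These values are read as background.

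**Figure D1:**
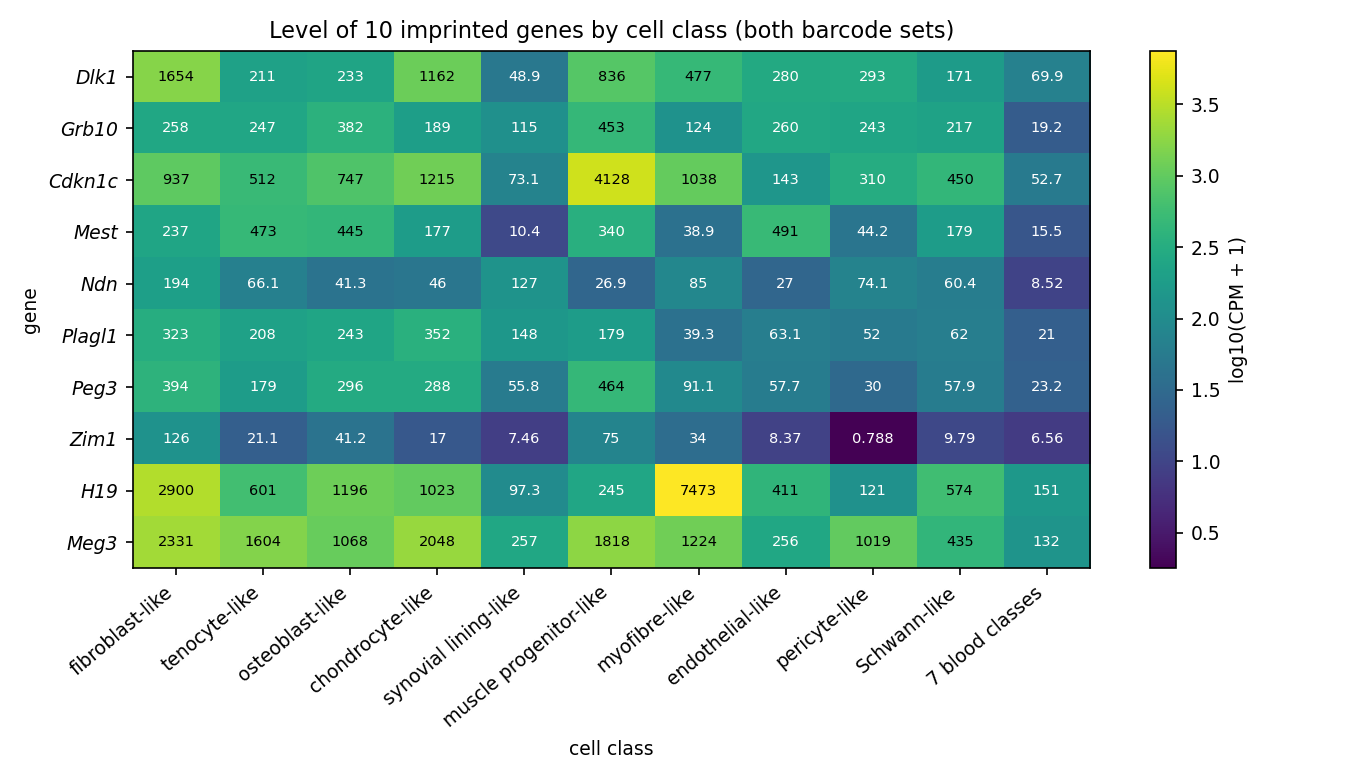
Level of each gene (rows) in the 10 non-blood classes and in the 7 blood classes pooled (columns), in CPM printed in each cell and coloured on a log10(CPM + 1) scale, both barcode sets together. H19 reached 7473 CPM in myofibre-like cells and Cdkn1c 4128 CPM in muscle progenitor-like cells, while synovial lining-like and blood cells were low for most genes. Most Cdkn1c UMIs of the muscle progenitor-like class came from its Myog cluster, described below.

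Dlk1 is a membrane protein of the Notch ligand family that restrains fat cell differentiation. Among the named classes it was highest in fibroblast-like cells, at 1673 CPM (set 1) and 1638 CPM (set 2). Chondrocyte-like cells came next, with 1229 and 1076 CPM, and muscle progenitor-like cells after them, with 796 and 854 CPM. With another clustering seed and with called doublets kept, chondrocyte-like cells were highest for Dlk1, at 1171 and 1149 CPM. The values of these 3 classes did not overlap. Of the 9 pairs of neighbours in the order of the 10 non-blood classes 5 overlapped, from myofibre-like cells at 477 CPM to Schwann-like cells at 171 CPM. The myofibre-like class holds a cluster of 40 cells with fibroblast markers, described below, and the 253 cells of its other cluster had 205 CPM of Dlk1 on their own.

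Grb10, an adaptor that binds insulin and IGF receptors and restrains growth, was highest in muscle progenitor-like cells, at 457 CPM (set 1) and 452 CPM (set 2). Osteoblast-like cells followed, with 393 and 364 CPM. The other classes lay close together: 6 of the 9 neighbouring pairs overlapped, and the lowest, synovial lining-like cells, still had 115 CPM.

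Cdkn1c, the cyclin-dependent kinase inhibitor p57, was highest in muscle progenitor-like cells, at 4007 CPM (set 1) and 4182 CPM (set 2). Of its 68649 UMIs in this class, 49444 came from the Myog cluster, described below, which holds differentiation markers. The remaining clusters of the class together had 1590 CPM. Chondrocyte-like cells had 1055 and 1423 CPM, myofibre-like cells 966 and 1085 CPM and fibroblast-like cells 765 and 1091 CPM, and these 3 overlapped from each class to the next. Its level in pericyte-like cells was 31.8 CPM in set 1 and 643 CPM in set 2, over 53 and 59 cells. In synovial lining-like cells it was 13.5 and 103 CPM. In these 2 classes the sets stood apart, and genotype, experiment and other differences between the sets cannot be told apart. This was not limited to Cdkn1c: in synovial lining-like cells Dlk1 had 9.02 and 68.7 CPM and Meg3 80.2 and 344 CPM in sets 1 and 2. Of the 10 genes, Plagl1 alone was higher in set 1 there, at 215 and 114 CPM.

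Mest, an enzyme of the alpha/beta hydrolase family expressed in growing mesoderm, had its highest levels in 3 classes that overlapped. Endothelial-like cells had 426 and 543 CPM, tenocyte-like cells 605 and 379 CPM and osteoblast-like cells 470 and 406 CPM in sets 1 and 2. Mest was the only 1 of the 10 genes whose highest named class differed between the sets. Copg2 overlaps Mest on the opposite strand and had 4540 UMIs, and the sources used here do not say whether counting used strand.

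Ndn, a MAGE family protein that restrains proliferation, was highest in fibroblast-like cells, at 155 CPM (set 1) and 230 CPM (set 2). Synovial lining-like cells, low for most of the group, came next for Ndn, with 91.1 and 144 CPM, and were highest, at 127 CPM over both sets, with another clustering seed. Among the 10 non-blood classes it was lowest in muscle progenitor-like cells, with 14.9 and 32.4 CPM, where it overlapped endothelial-like cells, at 27.0 CPM over both sets.

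Plagl1, Peg3 and Zim1 encode zinc finger proteins, and Plagl1 is known in mouse to regulate other imprinted genes. Plagl1 was highest in chondrocyte-like cells, with 299 and 419 CPM, which overlapped fibroblast-like cells, with 295 and 347 CPM. Peg3 was highest in muscle progenitor-like cells, with 506 and 444 CPM, and next in fibroblast-like cells, with 374 and 412 CPM, with no overlap between the classes. Zim1 was highest in fibroblast-like cells, with 123 and 129 CPM, and next in muscle progenitor-like cells, with 71.1 and 76.8 CPM. With another clustering seed, and with called doublets kept, the Abca8a cluster carried no class name and muscle progenitor-like cells were highest for Zim1, at 75.0 and 71.6 CPM. The neighbours Peg3 and Zim1 thus had different highest classes in both sets, but by single clusters both were highest in the same one, the Abca8a cluster of fibroblast-like cells, which is described below.

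H19, a noncoding RNA that carries the microRNA gene Mir675, was highest in myofibre-like cells, at 8763 CPM (set 1) and 6616 CPM (set 2). Fibroblast-like cells followed with 2892 and 2907 CPM, and 8 of the 9 neighbouring pairs in its order were apart. Meg3, a noncoding RNA that carries Mir770, was highest in fibroblast-like cells, with 2156 and 2488 CPM, which overlapped chondrocyte-like cells, with 1877 and 2270 CPM. Chondrocyte-like cells were highest for Meg3 in 5 of 11 alternatives, among them another clustering seed, at 2060 CPM. An unnamed cluster led by Msmp, Cytl1 and Prg4 (687 cells) was above every named class for Dlk1, with 1829 and 1847 CPM. Its best matching class was chondrocyte, with 6 of 8 markers passed and 33310 CPM of summed chondrocyte markers, against 67219 CPM in chondrocyte-like cells. It stayed unnamed because its leading genes held Prg4, a synovial lining marker, and no chondrocyte marker of the lists used. Its Meg3 level, 2358 and 3124 CPM, overlapped that of fibroblast-like cells, and its Plagl1 level, 301 and 427 CPM, that of chondrocyte-like cells.

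Set against the other non-blood classes, fibroblast-like cells had 4 of the 10 genes called higher and 0 lower, while 7.25% of the 15197 genes tested were called higher and 19.2% lower. The 4 were Ndn, with a ratio of 4.10, Zim1 with 3.59, H19 with 3.19 and Dlk1 with 2.84. Because the choice of the genes used the levels of Zim1 and Ndn in fibroblasts, nothing is read from this count. With another clustering seed, and with called doublets kept, the Abca8a cluster described below carried no class name and the count was 2. Muscle progenitor-like cells had Cdkn1c called higher, at a ratio of 4.94 (background 14.8%), and 2 lower, H19 and Ndn (22.7%). Myofibre-like cells had H19 called higher, at 4.23 (8.28%), and 6 lower (55%). Without the 40-cell cluster, the level of Mest was 4.57 CPM, against 38.9 CPM over the class, that of Plagl1 8.69 CPM, against 39.3 CPM, and that of Peg3 55.3 CPM, against 91.1 CPM. Zim1 had 17.8 CPM without it, and 45 of the 84 Zim1 UMIs of the class came from those 40 cells. Synovial lining-like cells had 0 called higher (8.45%) and 8 lower (19.4%), with a median log2 ratio of -2.62 against -0.04 over all genes tested. Endothelial-like cells had 0 higher (13.2%) and 8 lower (18.6%), pericyte-like cells 0 higher (10.6%) and 7 lower (10.7%), and Schwann-like cells 0 higher (13.9%) and 7 lower (9.79%). The median log2 ratios of the 10 genes in these 3 classes were -2.11, -2.07 and -1.82, while the median over all genes tested was at most 0.07 in each. Tenocyte-like cells had 0 higher (4.45%) and 4 lower (16.6%), osteoblast-like cells 0 higher (5.95%) and 3 lower (13.6%), and chondrocyte-like cells 0 higher (8.29%) and 2 lower (28.9%). Each class other than the fibroblast-like one was set against a pool that held the fibroblast-like cells. Nothing is therefore read from these counts of lower calls or from the median ratios.

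The fibroblast-like class held 3 clusters that differed in these genes. The Abca8a cluster (1356 cells, also led by Ebf2 and Cd248) is the group in which Zim1 and Ndn were leading genes, so its values are a description. It is set here against the Sfrp4 cluster (1124 cells, also led by Ugdh) and the Cxcl5 cluster (1033 cells, led by Cxcl5, Csf2 and other cytokine genes). The 3 clusters had median depths of 15366, 10215 and 21066 UMIs per cell.

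Zim1 had 315 CPM in set 1 and 248 CPM in set 2 in the Abca8a cluster, 69.4 and 72.3 CPM in the Sfrp4 cluster, and 24.6 and 24.9 CPM in the Cxcl5 cluster. Peg3 had 923 and 810 CPM in the Abca8a cluster, 265 and 226 CPM in the Sfrp4 cluster, and 78.5 and 59.5 CPM in the Cxcl5 cluster. Ndn had 359 and 409 CPM, 118 and 142 CPM, and 43.5 and 73.5 CPM in the same order. For each of these genes the clusters did not overlap, and the Abca8a cluster was highest in both sets. Mest, with 468 CPM over both sets in the Abca8a cluster, 179 CPM in the Sfrp4 cluster and 64.4 CPM in the Cxcl5 cluster, and Cdkn1c, with 1657, 764 and 395 CPM, were ordered alike. So were Grb10, with 423, 228 and 128 CPM, Plagl1, with 524, 297 and 158 CPM, Dlk1, with 2283, 1691 and 1076 CPM, and Meg3, with 3001, 2469 and 1659 CPM. H19 had a flatter profile, with 3664, 2369 and 2521 CPM, and the Cxcl5 cluster was not below the Sfrp4 cluster.

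The ratio of the Abca8a cluster to the others was 6.64 for Zim1 (95% interval 6.29 to 7.01), 6.48 for Peg3 and 4.66 for Ndn. It was 4.44 for Mest, 3.14 for Cdkn1c, 2.59 for Grb10 and 2.52 for Plagl1, and these 7 of 10 genes were called higher. Of the 12513 genes tested there, 28.7% were called higher and 9.53% lower, and because the choice of the genes used this contrast, nothing is read from the count. The ratios of Dlk1 (1.76), Meg3 (1.54) and H19 (1.49) stayed under 2. The median log2 ratio of the 10 was 1.48 against 0.20 over all genes tested, and with median-of-ratios scaling 5 were called. The Cxcl5 cluster had 0 called higher (background 6.39%) and 7 lower (25.1%), and the Sfrp4 cluster had 0 higher (0.487%) and 1 lower, Zim1 (8.74%). Both were set against pools that held the Abca8a cluster, so nothing is read from these counts either.

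**Figure D2:**
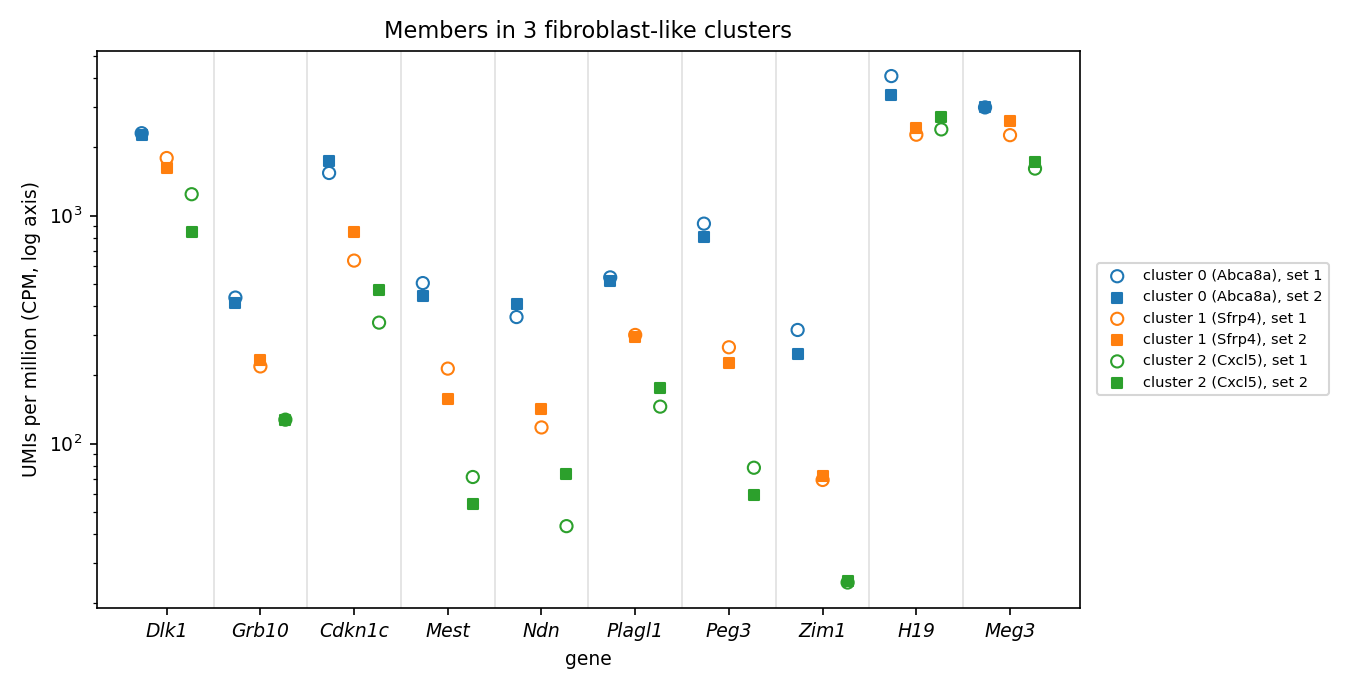
Level of each gene (horizontal axis) in the Abca8a, Sfrp4 and Cxcl5 clusters (colours) on a logarithmic CPM axis, with open circles for barcode set 1 and filled squares for set 2. For Zim1, Peg3, Ndn and Mest the Abca8a cluster stands well above the Cxcl5 cluster in both sets, while the 3 clusters lie closer together for H19 and Meg3.

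Along the muscle clusters the genes followed different courses. The Pax7 cluster (743 cells, also led by Fgfr4) and a cluster led by histone genes and Myod1 (186 cells) held progenitor markers, the Myog cluster (339 cells, with Actc1) held differentiation markers, and the Acta1 cluster (253 cells, with Myl1 and Ckm) held those of mature fibres. Cdkn1c had 9223 CPM in set 1 and 11663 CPM in set 2 in the Myog cluster, against 1507 and 1070 CPM in the histone cluster and 1981 and 1617 CPM in the Pax7 cluster. The Myog cluster lay far above both in each set, at a ratio of 6.83 (95% interval 6.72 to 6.94) to the histone and Pax7 clusters together. It was the only 1 of the 10 genes called higher there (background 5.03%). The genes Dlk1, Zim1, Peg3 and Mest were called lower (background 18.4%), with ratios of 0.35, 0.37, 0.42 and 0.43, and Grb10 and Meg3 had ratios of 1.12 and 0.96. Dlk1 had 354 CPM in the Myog cluster, against 918 CPM in the histone cluster and 1052 CPM in the Pax7 cluster, and Mest had 174 CPM, against 394 and 405 CPM. Peg3 had 233 CPM, against 453 and 585 CPM. These 3 genes were thus ordered opposite to Cdkn1c between the Myog cluster and the others. All 14 cell cycle genes of the list used were called lower in the Myog cluster.

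**Figure D3:**
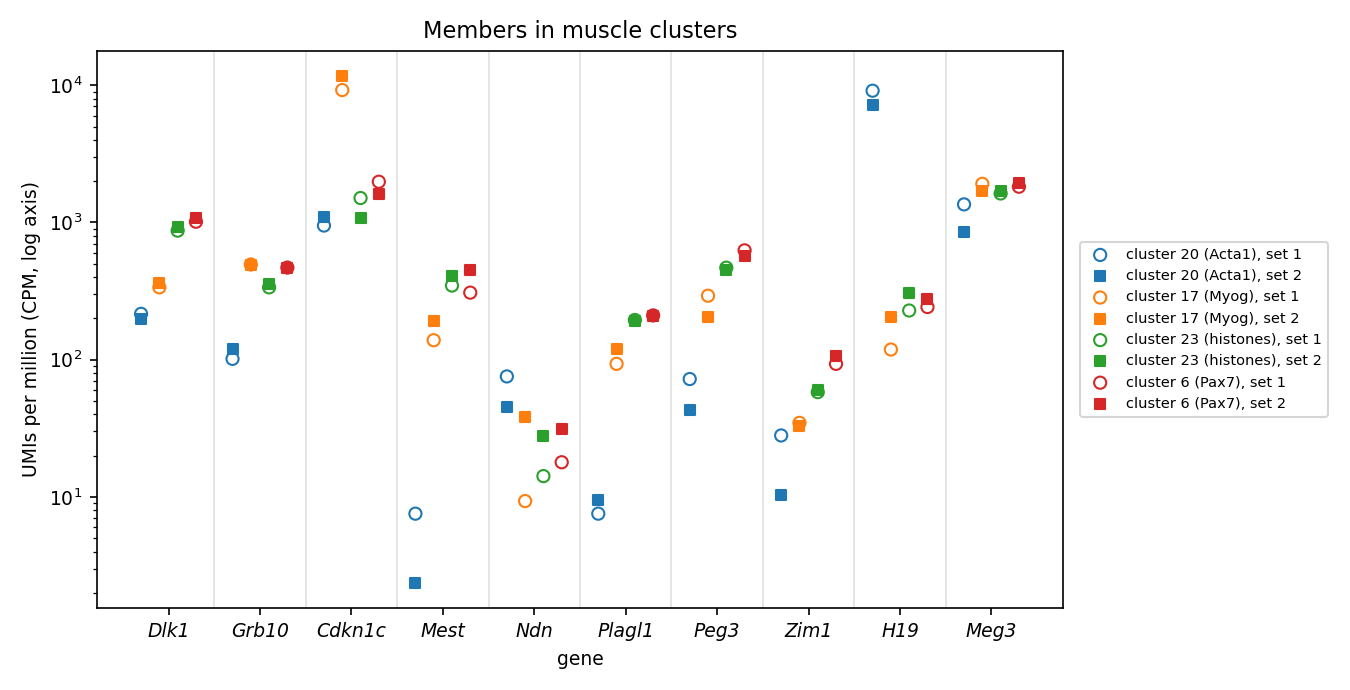
Level of each gene (horizontal axis) in the Acta1, Myog, histone and Pax7 clusters (colours) on a logarithmic CPM axis, with open circles for barcode set 1 and filled squares for set 2. Cdkn1c is highest in the Myog cluster and H19 in the Acta1 cluster in both sets, and Mest and Plagl1 are lowest in the Acta1 cluster.

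H19 had 9125 CPM in set 1 and 7156 CPM in set 2 in the Acta1 cluster, against 119 and 204 CPM in the Myog cluster, a ratio of 45.4 (95% interval 42.3 to 48.8). The Myog cluster was itself near the blood level of 151 CPM. The ratio was 76.9 in set 1 and 35.1 in set 2, was 72.7 without the 5% of cells with most UMIs in each cluster, and was 104 with median-of-ratios scaling. Ndn was also called higher in the Acta1 cluster, at 2.02, but with 8.09 in set 1 and 1.18 in set 2 its size rests on set 1. Against the Myog cluster, 5 genes were called lower: Mest, Plagl1, Cdkn1c, which was 10.5-fold lower, Grb10 and Peg3. Mest, at 4.57 CPM from 10 UMIs, and Plagl1, at 8.69 CPM from 19 UMIs, were in the Acta1 cluster below the level in blood cells, 15.5 CPM for Mest and 20.8 and 21.2 CPM in sets 1 and 2 for Plagl1, and are read as background there. The ratio of Mest was 0.05 in set 1 and 0.01 in set 2, and that of Plagl1 was 0.08 in each. In this comparison 11.1% of the 6120 genes tested were called higher and 58.7% lower, with a median log2 ratio of -0.98.

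The Acta1 cluster differed from the others in its RNA. Its cells had a median of 3502 UMIs, against 11149 UMIs in the Myog cluster. The nuclear noncoding RNA Malat1 was found in 37.2% of its cells, against 99.7% of cells in the Myog cluster. The shares of cells in this paragraph were taken at each cell's full depth, so they also depend on depth. Meg3, also a nuclear RNA, was concentrated in few cells of the Acta1 cluster: the 25 cells with most Meg3 held 98.2% of its 2336 Meg3 UMIs and 20.5% of all its UMIs. In the Myog cluster the highest 34 of 339 cells held 26.2% of Meg3 UMIs and 16.8% of all UMIs. Meg3 was found in 24.1% of Acta1-cluster cells and 98.8% of Myog-cluster cells. For Rian, a noncoding RNA of the same region, these shares were 81.8% and 84.7%. For Mirg, also of that region, they were 24.9% and 30.7%. The part of these differences in the levels of the Acta1 cluster was not tested. A further cluster of 40 cells named myofibre-like had summed fibroblast markers of 6441 CPM, against 33.4 CPM in the Acta1 cluster, and was kept out of the comparison of muscle clusters, but not out of the class values.

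Cells of the muscle progenitor-like class with at least 1 UMI of the proliferation genes Mki67 or Top2a, after each cell was thinned to 2000 UMIs, had less Cdkn1c. The 308 cells with such a UMI had 1726 CPM, against 4948 CPM in the 951 cells without, a ratio of 0.35 (95% interval 0.33 to 0.37), with 0.45 in set 1 and 0.32 in set 2. Within single clusters the ratio was closer to 1, at 0.80 (0.71 to 0.89) in the Pax7 cluster and 0.97 (0.74 to 1.30) in the histone cluster. The Myog cluster held 12 of the 308 cells and 322 of the 951. Mest went the other way, with 433 CPM in cells with such a UMI, against 290 CPM in those without, and a ratio of 1.40 (1.15 to 1.71) in the Pax7 cluster. In fibroblast-like cells 68 cells had such a UMI, and the Cdkn1c ratio was 0.78 (0.64 to 0.94). The Mest ratio there was 0.69 (0.45 to 1.02). For Cdkn1c, chondrocyte-like cells had a ratio of 0.96 (0.73 to 1.25), osteoblast-like cells 0.60 (0.39 to 0.87) and tenocyte-like cells 0.66 (0.32 to 1.23). Only 29, 25 and 14 cells of these classes had such a UMI.

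The number of the 10 genes found in a cell was counted after every cell was thinned to 2000 UMIs, and shallower cells were left out. Cells of the Abca8a cluster held 6.56 ± 1.93 of the genes (SD over 1350 cells), with means of 6.55 in set 1 and 6.56 in set 2. The Sfrp4 cluster held 4.68 and the Cxcl5 cluster 3.78. Muscle progenitor-like cells held 4.47, chondrocyte-like cells 4.42 and osteoblast-like cells 3.92, while endothelial-like, pericyte-like, Schwann-like and synovial lining-like cells held between 1.86 and 1.31. Blood cells held 0.284, with none in 82.3% of 5463 cells. At least 5 of the genes were found in 84.6% of cells of the Abca8a cluster and in 1.04% of blood cells, or 57 cells. Because the choice of the genes used the levels of Zim1 and Ndn in the Abca8a cluster, its rank here is a description. No such count was made for other genes of like level. In the fibroblast-like class 17 cells and in the blood classes 497 cells were too shallow to thin, and the unthinned mean of the fibroblast-like class was 8.14 genes against 5.14 thinned.

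**Figure D4:**
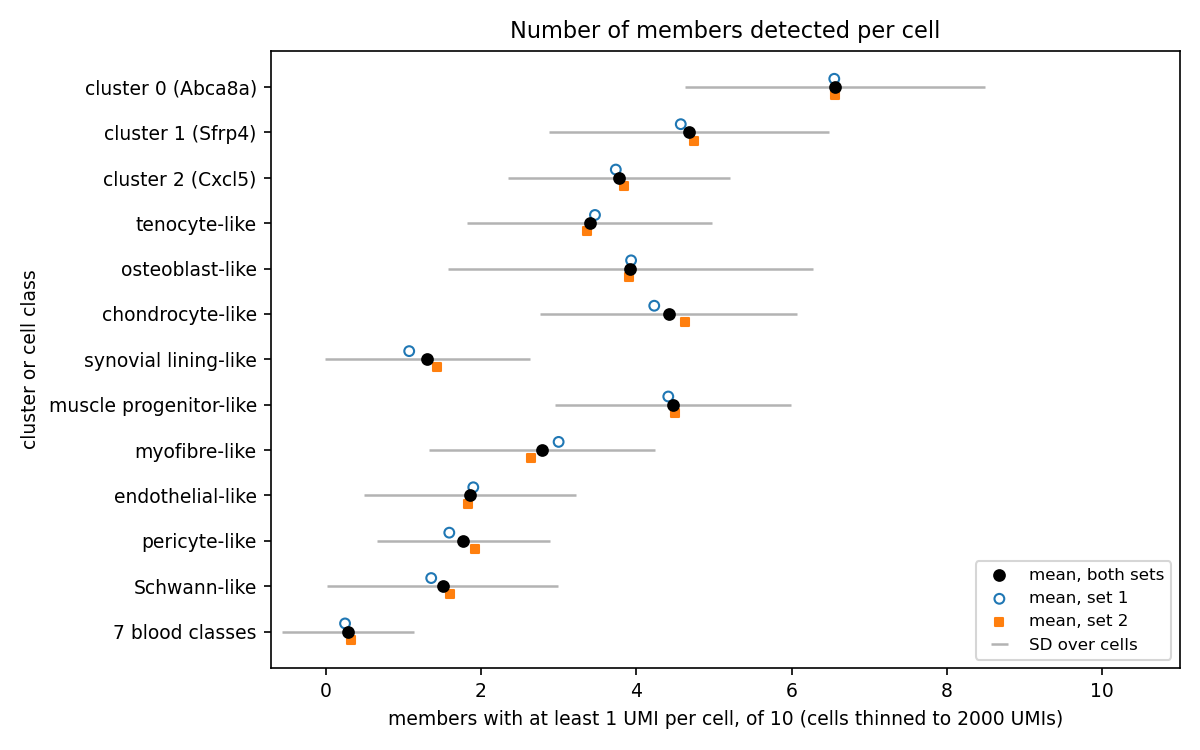
Mean number of the 10 genes with at least 1 UMI per cell after thinning to 2000 UMIs, by cluster or class, with black points for both barcode sets, open circles for set 1, orange squares for set 2 and bars for the SD over cells. The Abca8a cluster is highest at 6.56 and blood cells lowest at 0.284, and in the Abca8a cluster the sets lie at 6.55 and 6.56. The choice of the genes used levels in this cluster, so its rank is a description.

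Zim1 was found in 38.9% of thinned cells of the Abca8a cluster, 14.7% of the Sfrp4 cluster, 6.4% of the Cxcl5 cluster and 0.6% of blood cells. Ndn was found in 48.7%, 21.6%, 12.6% and 0.7% of the same cells. To ask whether the genes occurred in the same cells, the share of cells with both genes of a pair was divided by the product of their 2 shares. Over all fibroblast-like cells this ratio was above 1 for 45 of 45 pairs, with a median of 1.14 (1.16 in set 1 and 1.12 in set 2). It was computed only for pairs of these genes. The counts of pairs above 1 thus have no background from other genes, and nothing about imprinted genes is read from them. Zim1 and Peg3 had the highest ratio, 1.63, with both in 14.9% of cells against a product of 9.14%, and both Zim1 and Ndn were in 9.53% of cells against a product of 6.36%. Within the Abca8a cluster alone the median was 1.05, with 42 of 45 pairs above 1, and Zim1 and Ndn had 1.06, with both in 20.1% of cells. The ratio cannot exceed 1 over the larger of the shares, which for Peg3 was 73.2% in the Abca8a cluster and 42.3% in the class. For Zim1 and Ndn the larger share in the cluster was 48.7%, so their cap lay well above the ratio of 1.06. The class also pools clusters with different levels of these genes. The part of the cap and of the pooling in the ratios was not tested, so cluster and class are not compared. The Sfrp4 cluster had a median of 1.11 and the Cxcl5 cluster 1.05. Osteoblast-like cells, a single cluster, had a median of 1.29, with 45 of 45 pairs above 1, and their count of genes per cell also had a wide spread, 3.92 ± 2.35 (SD over 549 cells). Doublets were not removed in effect, since the caller used marked 3 of 7160 and 1 of 8014 cells, and their part in co-detection was not tested.

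**Figure D5:**
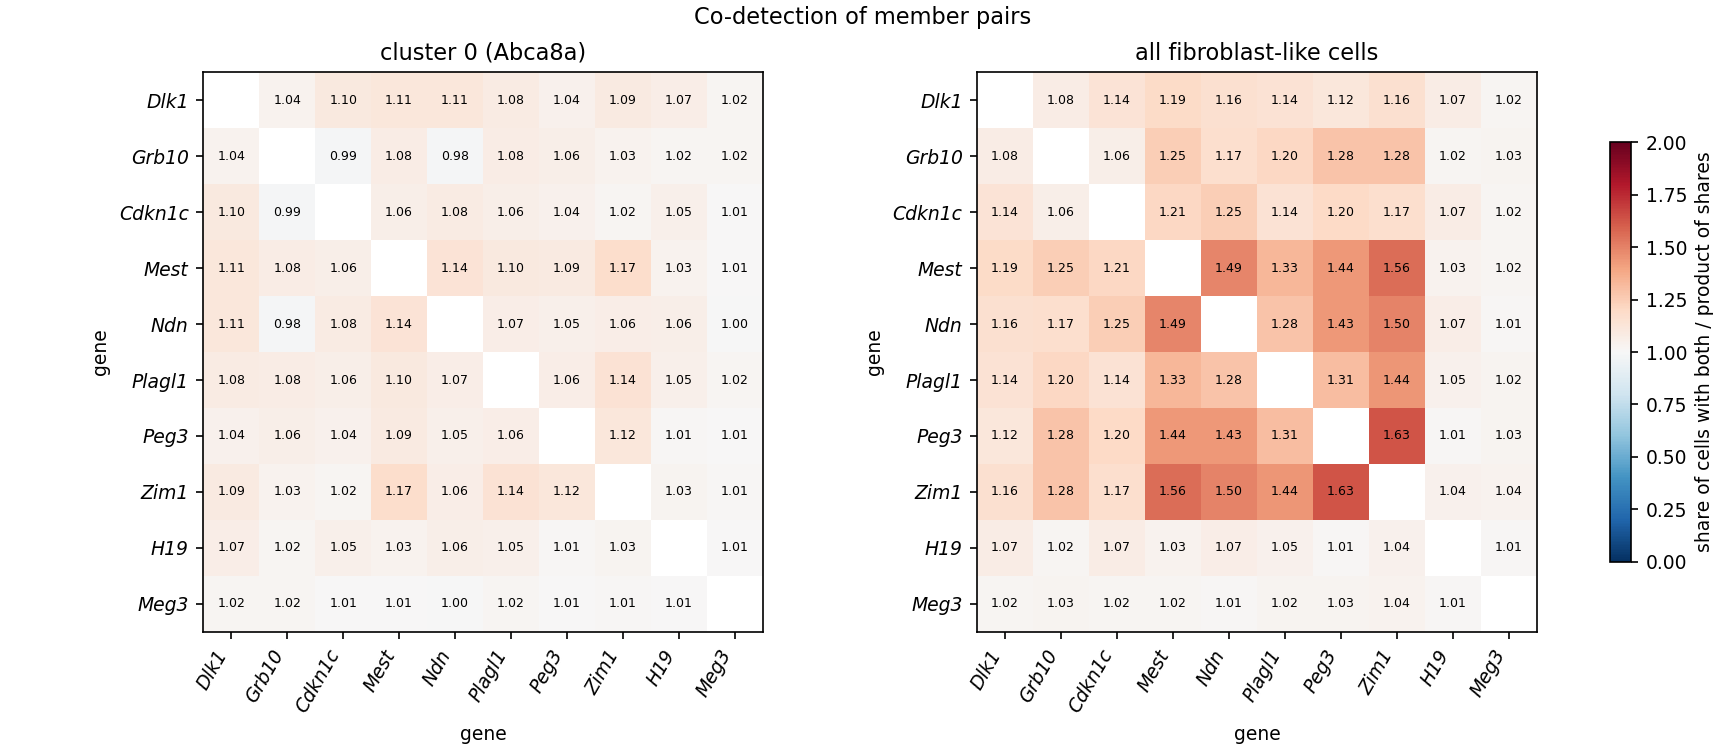
Share of cells with both genes of a pair divided by the product of their shares, for cells thinned to 2000 UMIs, in the Abca8a cluster (left) and in all fibroblast-like cells (right), with 1 in white and ratios printed. Pairs among Mest, Ndn, Plagl1, Peg3 and Zim1 reach 1.63 in the whole class and lie between 1.05 and 1.17 within the Abca8a cluster. The cap on the ratio differs between pairs and between cluster and class, and its part was not tested.

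Other imprinted genes did not form a single pattern with the 10. Of 26 imprinted neighbours on the list used, 23 had at least 100 UMIs, and only a part of these is described here. Igf2, the growth factor next to H19, was highest in fibroblast-like cells, at 2654 CPM (set 1) and 2814 CPM (set 2), and second in myofibre-like cells, at 1614 CPM. In the Acta1 cluster Igf2 had 1395 CPM, against 394 CPM in the Myog cluster, a ratio of 3.54, the same direction as H19. Rian and Mirg, noncoding RNAs beyond Meg3 in the Dlk1 region, were highest in myofibre-like cells, with 935 and 802 CPM for Rian and 122 and 74.1 CPM for Mirg in sets 1 and 2, unlike Meg3. In the Acta1 cluster, most of that class, 25 cells held 98.2% of the Meg3 UMIs. Usp29, beside Peg3, was highest in muscle progenitor-like cells, with 57.3 and 63.0 CPM, like Peg3. Phlda2, in the Cdkn1c region and known to restrain placental growth, had 28.8 and 32.1 CPM in chondrocyte-like cells and at most 3.85 CPM in any other class. Magel2 and Mkrn3, near Ndn, were at most 2.37 CPM in every class.

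In the contrast of the Abca8a cluster with the other fibroblast-like clusters, 8 of the 18 neighbours tested were called higher and 0 lower, among them Usp29 at 4.89 and Mirg at 2.38. Of 23 other imprinted genes tested, 9 were called higher and 2 lower. Their median log2 ratios were 0.55 and 0.43. The same 28.7% of all genes called higher applies to these counts. Of the 6 other imprinted genes with the highest class levels, Gnas, which encodes a stimulatory G protein subunit, had 3258 and 4618 CPM in muscle progenitor-like cells. Airn, a noncoding RNA antisense to Igf2r, had 467 and 806 CPM in pericyte-like cells, Ampd3 had 348 and 301 CPM in macrophage-like cells and Igf2r had 242 and 176 CPM in muscle progenitor-like cells. Commd1 had 176 and 169 CPM in myofibre-like cells, and H13 had 124 and 135 CPM in osteoblast-like cells.

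The genes most like each member were taken by Pearson's r of log2(CPM + 10) over the 17 classes, among 11317 genes with at least 1000 UMIs. The classes share libraries and free RNA, and the blood classes are low in all 10 genes, so these values are a description. H19 was most like Igf2 (0.92) and Mirg (0.88), Meg3 most like Rian (0.94) and Dlk1 most like Rian (0.88). Zim1 was most like AW551984 (0.92), Ndn like Maged2 (0.95), Peg3 like Capn6 (0.93), Mest like Sncaip (0.93), Cdkn1c like Adcy2 (0.92), Grb10 like Rbfox2 (0.97) and Plagl1 like Gpx7 (0.94). The mean of the 10 was most like Igf2 (0.93), followed by Rian (0.90), Itm2a, Nfix and Obsl1. Of the 45 pairs of members the median r was 0.76, from 0.48 for Ndn and Mest to 0.93 for Cdkn1c and Meg3, and Zim1 and Ndn had 0.55.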

How the data were processed

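The deposited values are UMI counts per gene and cell, per the file headers of a matrix of all cells. Per the labels' protocols, single-cell 3' version 3 libraries were made and reads were aligned, counted and merged with Cell Ranger 7.0.0, and the submitters' processing notes name build mm10. UMIs near the 3' end do not compare levels between genes. From these counts, cells were filtered, log-normalized and clustered with scanpy 1.11.5 and leidenalg 0.10.2 (2000 variable genes, 30 components, 15 neighbours, resolution 1), leaving out imprinted, mitochondrial, ribosomal, Xist and Y-linked genes. Classes were named from marker lists. At least 3 markers had to be found in 10% of cells or more and be 1 log2 unit or more above the other clusters. The median over the markers of the class had to reach 1 log2 unit as well. A cluster with more leading genes among the markers of another class was left unnamed, and 4 clusters stayed unnamed in all. Scrublet was run per barcode set and marked under 0.05% of cells, so it did not work as a doublet filter. Class levels are summed UMIs per 1000000 UMIs (CPM) with exact Poisson 95% intervals, ratios have exact conditional binomial intervals (scipy 1.17.1), and PCR and free RNA are outside both. The calls were tested on simulated counts before use. The text names the 10 members and the 6 other imprinted genes with the highest class level. Of the imprinted neighbours with at least 100 UMIs it names only a part. For each member it names at least 1 of the 2 genes most like it. Members, lists and rules were chosen with earlier results of these data known. The comparison of clusters by Abca8a, Sfrp4, Cxcl5, Myog, Pax7 and Acta1, and the spread of Meg3 over cells, were added after the data were seen. Positions are from GENCODE M21 and RefSeq GRCm38.p6, the same build as mm10.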

Additional observations from a re-analysis of the deposited data

How the results depend on the processing

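No paired analysis was possible because the samples are merged in a matrix with no map from cells to samples. Of 16 alternatives for the members called higher in each non-blood class (6 in all), 14 stayed within 1.5 times; the exceptions were 12 with a ratio of at least 1.5 and 15 with all other cells pooled. The 4 members called higher in fibroblast-like cells became 2 with clustering seed 2, 2 with called doublets kept and 7 with all other cells pooled. The 9 members with the same highest class in both sets became 5 with at most 5% mitochondrial UMIs. The mean of 5.14 members per fibroblast-like cell became 5.27 with at least 200 genes and 500 UMIs, 5.32 with at least 1000 genes and 2000 UMIs, 5.29 with at most 5% mitochondrial UMIs, 4.83 at resolution 0.5, 4.30 with seed 2, 4.64 with doublets kept, 4.87 in set 1 alone, 5.34 in set 2 alone, 3.93 thinned to 1000 UMIs, 6.29 thinned to 4000 UMIs and 8.14 not thinned. The median co-detection ratio of 1.14 became 1.19 at resolution 0.5, 1.19 with seed 2, 1.17 with doublets kept, 1.21 thinned to 1000 UMIs and 1.08 thinned to 4000 UMIs. With seed 2 and with doublets kept, the Abca8a cluster carried no class name and so was not among the fibroblast-like cells. Keeping called doublets changed the number of cells only from 15170 to 15174. The cause of these shifts was not tested. The count of 7 in the Abca8a cluster stayed between 5 and 9 over 14 alternatives, and the Cdkn1c and H19 ratios of the Myog and Acta1 clusters stayed called in the same direction in 12 of 12. With at least 200 genes and 500 UMIs the Abca8a, Sfrp4 and Cxcl5 clusters were not 3 separate ones and gave no value. Meg3 kept its highest class in 6 of 11 alternatives, Mest in 8, Dlk1 and Zim1 in 9, Ndn in 10 and the other 5 in 11. Classes of about 100 cells limit the precision of low genes.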

Other observations

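The 25 cells of the Acta1 cluster with most Meg3 were chosen by that gene, so their Meg3 level, 5113 CPM against 23.6 CPM in the other 228 cells, is a description. The same 25 cells had 12571 CPM of Malat1, against 180 CPM in the others, 2206 CPM of Rian, against 582 CPM, and 336 CPM of Mirg, against 38.0 CPM. H19 went the other way, at 4919 CPM, against 8783 CPM, and so did the muscle actin gene Acta1, at 47631 CPM, against 65250 CPM. The globin gene Hbb-bs had 695 CPM in these 25 cells and 15362 CPM in the others. Their median depth was 9138 UMIs, against 3103 UMIs.

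Of the 20 places for the genes most like the members, 7 were held by 4 other imprinted genes of the lists, Igf2, Mirg, Rian and Slc38a4, among 35 such genes ranked with 11317 genes in all. Rian, Mirg and Meg3 lie in the same region and may share transcripts, and free RNA is shared by all classes.

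The unnamed cluster led by Dnah12 (159 cells) held 4.75 of the 10 genes per cell, and the unnamed cluster led by Msmp (687 cells) held 4.34, with 43.5% of its cells holding at least 5.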
